A study of Mus musculus with 8 samples.

Results

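Histone genes were read on a mouse 44K Agilent array as 2 classes, split by array name and not by position. The cluster class took names starting with Hist1h to Hist4h, of the replication-dependent histone clusters. The variant class took names starting with H1f, H2af or H3f. Members were every probe with such a name, 68 probes of 41174 on the array, for 49 of the 28146 names in its gene column. The cluster class had 43 probes for 35 names and the variant class 25 probes for 14 names. Names are the array's own, and several have since changed, so that Hist1h1c is now H1f2 and Hist1h2bp is now H2bc22. The livers came from C57BL/6J mice, mothers and their male fetuses, collected at caesarean section on gestation day 18. Control mothers had free access to chow, and food-restricted (FR) mothers received 50% of the control intake from gestation day 10 to 17. Age of the mothers is not given in the sources used here. RNA of 6 mothers a diet was pooled (1 pool pair, 2 arrays), and fetal RNA was pooled from 6 fetuses (1 pool pair, 2 arrays) or from 3 fetuses (2 pool pairs, 4 arrays). An FR pool and a control pool shared each array in Cy5 and Cy3, and each pair was run again with the dyes exchanged. The labels do not say which mothers gave to which pool. With 6 mothers a diet and 2 fetuses a mother, fetal pools of 6, 3 and 3 cannot all be of different mothers. The fetal pools are thus not fully independent, and the test below measures only the spread between these pools.

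Histones package DNA into nucleosomes, each built of H2A, H2B, H3 and H4, and linker histone H1 binds the DNA between them. Cluster genes are transcribed mainly in S phase, when new DNA needs packaging, and their mRNAs typically end in a stem-loop in place of a poly(A) tail. Variant genes are typically expressed outside S phase as well, mostly yield polyadenylated mRNAs, and often mark particular chromatin, as H2A.Z does at promoters. Fetal liver at this age holds many dividing blood cell precursors, while adult hepatocytes rarely divide. The labelling kit used here primes from poly(A) tails, so signals of stem-loop mRNAs depend on tailed or internally primed copies. Its part in the values below was not tested.

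Cluster genes are near copies of each other, so the probe sequences are shown first, since they tell which member probes share long runs. Of the 68 probes, 21 share a run of at least 20 identical bases with another member probe. Capitals mark the longest run common to the probes of each set, and letters read 5′ to 3′. A set of 4 H2A probes, 3 of cluster genes and 1 of the variant gene H2afj, has a run of 16 bases in common.
Hist1h2aa: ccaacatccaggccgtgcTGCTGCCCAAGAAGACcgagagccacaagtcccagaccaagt
Hist1h2af: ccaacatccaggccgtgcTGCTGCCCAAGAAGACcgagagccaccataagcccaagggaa
Hist1h2ao: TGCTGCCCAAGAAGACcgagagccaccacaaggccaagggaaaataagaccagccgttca
H2afj: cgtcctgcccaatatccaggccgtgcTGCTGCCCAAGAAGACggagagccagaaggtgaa
Within that set Hist1h2aa and Hist1h2af share 44 bases in a row, and each shares 29 with H2afj. The probes lie at chr13:24026659-24026718, chr13:23626108-23626167 and chr13:21902682-21902741 for the cluster genes and at chr6:136757181-136757240 for H2afj (mm9, plus strand). A set of 3 H2B probes shares 26 bases, and those of Hist1h2bk and Hist1h2bm share 52.
Hist1h2bk: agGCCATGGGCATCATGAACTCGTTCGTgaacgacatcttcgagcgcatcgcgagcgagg
Hist1h2bm: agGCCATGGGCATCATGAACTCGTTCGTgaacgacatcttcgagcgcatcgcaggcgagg
Hist3h2bb-ps: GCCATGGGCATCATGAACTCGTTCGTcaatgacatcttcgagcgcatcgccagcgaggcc
They lie at chr13:22127928-22127987 and chr13:21814139-21814198 (plus strand) and chr11:58767697-58767756 (minus strand, mm9). The H4 probes of Hist1h4d and Hist1h4f share 50 bases, and both share 29 with Hist2h4.
Hist1h4d: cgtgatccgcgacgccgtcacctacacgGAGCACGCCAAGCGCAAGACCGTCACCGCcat
Hist1h4f: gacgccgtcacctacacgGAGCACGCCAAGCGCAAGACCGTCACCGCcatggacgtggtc
Hist2h4: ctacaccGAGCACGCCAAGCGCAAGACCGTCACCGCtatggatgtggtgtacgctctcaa
Signals within each set can be shared between genes and are counted per probe, not as separate genes. A probe without such a run can still match several transcripts, as those of Hist1h3d and Hist2h3c1 do, with 4 and 3 RefSeq transcripts listed.

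Probes of 3 cluster genes hold letters of the histone stem-loop (CTCTTTTCA or CTTTTCAGA, overlapping motifs searched on the probe strand). They are shown because the stem-loop is the end that sets these mRNAs apart, as part of each probe, with the stem and loop letters in capitals. The last line, from the H2B gene Hist1h2bp, holds the poly(A) signal letters AATAAA, the sole member probe that does.
Hist1h3a: aaccaaaGGCTCTTTTCAGAGCCaca
Hist1h2ae: CTTTTCAGAGCCattcacttaatt
Hist1h2ab: taaccaaaacaaaGGCTCTTTTCA
Hist1h2bp: atcctgaaaaagagtatttAATAAAtctat
The probes lie at chr13:23853756-23853815 and chr13:23662489-23662548 (minus strand) and chr13:23843392-23843451 (plus strand, mm9), and the array gives no position for the Hist1h2bp probe. In FR fetuses Hist1h3a and Hist1h2bp rose, and Hist1h2ae and Hist1h2ab fell, with values below. Probes with stem-loop letters were found in both directions.

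RefSeq's promoter table (GRCm38.p6, 250 bases before to 50 after each start, the first start listed of a gene) held 41 of the 49 genes. The letters CCAAT, on either strand, were in 27 of 29 cluster promoters (93.1%), 7 of 12 variant promoters (58.3%) and 37.4% of 32851 starts in the table. TATAAA was in 19 cluster promoters (65.5%), 1 variant promoter, that of H3f3b, and 13.6% of all. The octamer ATTTGCAT was in 9 cluster promoters, 6 of H2A and 3 of H2B genes, in H3f3b, and in 1.74% of all. The promoters of Hist1h1c, the cluster gene with the largest fetal change, and of Hist1h2aa, whose start lies 280 bases from that of the H2B gene Hist1h2ba on the other strand, are shown from base 200 before the start to the base next to it, with the 3 motifs in capitals.
Hist1h1c: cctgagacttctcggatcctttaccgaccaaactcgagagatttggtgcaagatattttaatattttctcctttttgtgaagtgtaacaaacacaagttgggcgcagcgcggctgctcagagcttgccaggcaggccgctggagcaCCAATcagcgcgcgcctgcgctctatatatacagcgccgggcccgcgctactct
Hist1h2aa: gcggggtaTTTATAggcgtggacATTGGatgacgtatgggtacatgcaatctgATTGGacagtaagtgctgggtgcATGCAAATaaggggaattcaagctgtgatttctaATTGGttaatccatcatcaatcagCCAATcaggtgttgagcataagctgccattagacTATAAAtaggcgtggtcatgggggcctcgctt
The windows are chr13:23738607-23738806 and chr13:23934237-23934436 (GRCm38.p6, plus strand). Hist1h1c has 1 CCAAT, and the window of Hist1h2aa has 4 CCAAT over both strands, 1 octamer and 2 TATAAA, 1 on each strand. In fetal liver Hist1h2ba rose by 0.48 on the log2 scale, and Hist1h2aa, read from a probe shared with other H2A genes, had 0.30 and did not pass the test. Motif matches are descriptions and were not set against the changes.

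In the fetuses cluster genes leaned higher with FR, and in the mothers they leaned lower, while variant genes stood near 0 in the mothers. All changes below are log2 ratios of FR over control, averaged over the 2 arrays of a pool pair, so 1 is a doubling. Of the 68 probes, 66 were bright enough in the fetuses and 64 in the mothers. The limma test over 3 fetal pool pairs called 25.2% of 30812 probes at an adjusted p under 0.05, with 10.9% of probes higher and 14.3% lower. Against that background, 21 histone probes rose and 5 fell. Cluster probes gave 17 of the rises and 3 of the falls among 42 measured, and variant probes 4 rises and 2 falls among 24. All 6 fetal arrays were above 0 for 18 of the cluster and 4 of the variant probes, against 15% of all probes, and below 0 for 2 and 2, against 19.1%. The median fetal change was 0.27 over cluster probes and 0.14 over variant probes, against 0.00 over all probes. By pool pair, the cluster median was 0.29 in the pools of 6 and 0.37 and 0.10 in the pools of 3, and the variant median was 0.02, 0.22 and 0.08. The second pair of pools of 3 had the lowest of the 3 values for 30 of 42 cluster probes. In the mothers, the cluster median was -0.22, with 34 of 41 probes below 0, and the variant median was 0.01, with 13 of 23 above 0. Mothers had 1 pool pair and so no test, and a maternal change was counted where both arrays passed 1.5-fold in 1 direction, as 2.93% of 28326 probes did upward and 3.44% downward. Among histone probes 2 passed upward and 3 downward.

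**Figure D1:**
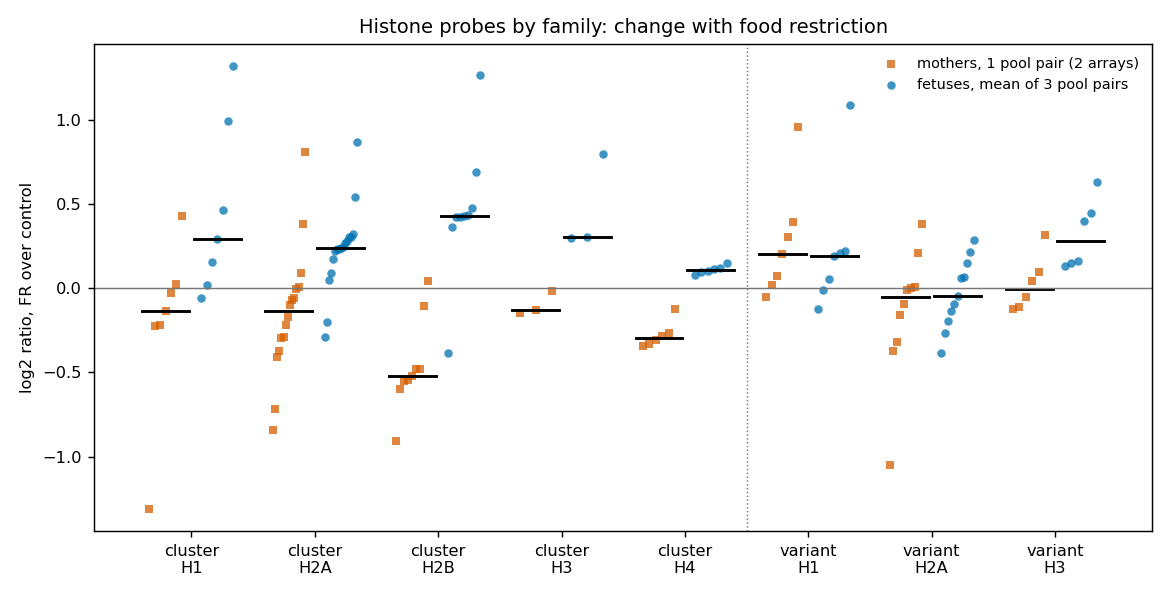
Log2 ratio of FR over control for each histone probe that passed the brightness filter, by class and family (x axis), in mothers (squares, mean of the 2 arrays of 1 pool pair) and fetuses (circles, mean of 3 pool pairs), with bars at the medians. The cluster H2B probes lie apart most, with a median of -0.52 in the mothers and 0.43 in the fetuses.

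The calls sit close to the threshold. With scale normalization between arrays limma called 0 probes of any kind (lowest adjusted p 0.0582, with 10918 probes and 36 histone probes at an unadjusted p under 0.05). Without the pools of 6 it called 1099 probes, of which 0 were histone probes. In that fit 9381 of 30812 probes and 33 of 66 histone probes had an unadjusted p under 0.05. The cluster medians kept their direction in fetuses (0.16 to 0.38) and in mothers (-0.30 to -0.17) under every setting tried, and the variant median in the mothers turned to -0.00481 without loess.

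Linker histone genes of the cluster held the largest fetal change of all members. Hist1h1c encodes a somatic linker histone, H1.2, and its probe lies at chr13:23832018-23832077 (mm9). It read 1.42 and 1.56 on the arrays of the fetal pools of 6, 1.73 and 1.77 on the first pair of pools of 3, and 0.71 and 0.71 on the second. In the mothers Hist1h1c read -0.08 and -0.20. All 6 fetal arrays were therefore high and both maternal arrays slightly below 0, with no overlap. The fetal mean was 1.32 ± 0.54 (SD, n = 3 pool pairs), or 2.49-fold, with a limma adjusted p of 0.0130. Maternal minus fetal change was -1.45 with a limma adjusted p of 0.129. As the mothers had 1 pool pair, this and every such difference below takes its spread from the fetal pairs alone and assumes that mothers vary alike.

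Hist1h1d, the H1.3 gene, has 2 probes that differ. The dimmer probe (chr13:23649203-23649262) read 1.14, 0.59, 1.68, 1.17, 0.87 and 0.50 on the fetal arrays and -1.47 and -1.15 on the maternal arrays. Every fetal array was above 0 and both maternal arrays were far below, so mother and fetus moved in opposite directions. Its fetal mean was 0.99 ± 0.39 (limma adjusted p = 0.0124), its maternal mean -1.31, and the difference of -2.30 passed the test (adjusted p = 0.0288). The brighter Hist1h1d probe, upstream of it at chr13:23647452-23647511, gave 0.29 ± 0.26 in the fetuses (adjusted p = 0.0953) and -0.23 in the mothers. Both probes have the same signs, and they differ in size. The dimmer probe was not well above background in both channels on every array. Its log2 signal in the mothers was 8.46 in control and 7.15 in FR.

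Among the other cluster linker genes, Hist1h1a (H1.1) rose in the fetuses by 0.47 ± 0.25 (limma adjusted p = 0.0293) and read -0.03 in the mothers. Hist1h1b (H1.5), a gene of dividing cells, had a fetal mean of -0.06 and a maternal mean of -0.22, and Hist1h1e (H1.4) had 0.15 and 0.43. The testis gene Hist1h1t stayed at 0.02 in both. Of 7 cluster linker probes, 3 passed upward in the fetuses by limma and 0 downward, with 4 and 0 at an unadjusted p under 0.05.

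The variant linker gene H1f0 encodes H1.0, which builds up in differentiated cells that have left the cell cycle. Its brightest probe (chr15:78859657-78859716, mm9) read 0.99 and 1.5 in the fetal pools of 6, 1.38 and 1.30 in the first pair of pools of 3, and 0.66 and 0.69 in the second. The maternal arrays read 0.92 and 0.99. Mother and fetus overlapped, and every array was high. The fetal mean of H1f0 was 1.08 ± 0.36, or 2.12-fold (limma adjusted p = 0.00943), and the maternal mean 0.95, or 1.94-fold. The other H1f0 probes, which share 28 bases with each other and lie at chr15:78859930-78859989 and chr15:78859936-78859994, gave fetal means of 0.21 and 0.19 and did not pass, with 0.30 and 0.39 in the mothers. The size of the H1f0 change thus depended on the probe, while its sign did not. H1fx, the H1.10 gene, gave -0.12 and 0.22 on its probes, and the oocyte gene H1foo and the spermatid gene H1fnt gave -0.01 and 0.05, and none of them passed.

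**Figure D2:**
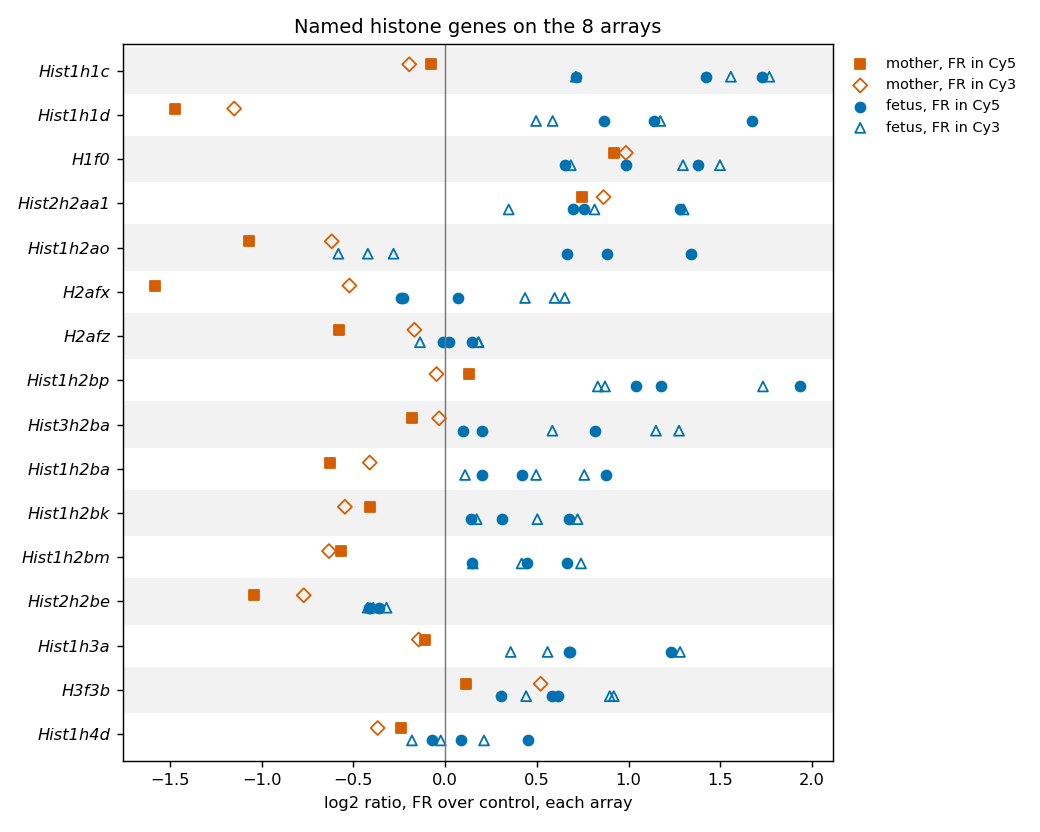
Log2 ratio of FR over control on each of the 8 arrays for 16 named probes, labelled by gene, with mothers as squares (FR in Cy5) and diamonds (FR in Cy3) and fetuses as circles (FR in Cy5) and triangles (FR in Cy3). Hist1h1c, Hist1h1d, Hist1h2bp and Hist1h3a are high on all 6 fetal arrays and not in the mothers, H1f0 is high in both, and the fetal points of Hist1h2ao split by dye.

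The cluster H2A genes rose in part and by small amounts. Of 17 probes, 6 rose and 2 fell in the fetuses, with a median of 0.24, and the maternal median was -0.14. Hist2h2aa1 had the largest change, on a dim probe. Its probe at chr3:96044988-96045047 read 0.76, 0.35, 1.28, 1.30, 0.70 and 0.81 on the fetal arrays and 0.75 and 0.86 in the mothers. All 8 arrays were high, and mother and fetus overlapped. The fetal mean was 0.87 ± 0.38 (limma adjusted p = 0.0158) and the maternal mean 0.81, past 1.5-fold on both arrays. A second Hist2h2aa1 probe gave 0.54 ± 0.22 in the fetuses (adjusted p = 0.0157) and 0.38 in the mothers, while the brightest gave 0.24 (adjusted p = 0.0678) and 0.01. The array lists 0 RefSeq transcripts for the probes that passed, whose mean log2 intensities were 7.27 and 6.93. The brightest lists 2 and had a mean of 11.34.

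The linked probes of Hist1h2af, Hist1h2ai and Hist1h2ak, which share runs of 26 to 40 bases, moved as 1 signal, with fetal means of 0.23 to 0.24 that passed and maternal means of -0.41 to -0.29. Both H2A genes whose probes hold stem-loop letters fell. Hist1h2ae read -0.35, -0.20, -0.16, -0.16, -0.41 and -0.45 on the fetal arrays, all below 0, and -0.05 and -0.06 in the mothers. Its fetal mean was -0.29 ± 0.14 (limma adjusted p = 0.0335). Hist1h2ab had a fetal mean of -0.20 ± 0.08 (adjusted p = 0.0460), but on the arrays with FR in Cy5 alone the mean was 0.03, so its direction depended on the dye.

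Bright H2A probes split by dye orientation in the fetuses. Hist1h2ao read 1.34, 0.88 and 0.66 on the fetal arrays with FR in Cy5 and -0.42, -0.28 and -0.58 on those with FR in Cy3. Hist1h2aa read 1.32, 0.92 and 0.68 against -0.31, -0.31 and -0.49, and H2afj 1.48, 0.92 and 0.80 against -0.54, -0.31 and -0.64. In each of them the sign followed the dye orientation. The same split was seen in 7 of 66 histone probes (10.6%), 5 of them cluster H2A, against 3.88% of all probes. Among the 209 probes in the brightest of 7 intensity bins over the whole array, 99 split this way, and the median gap between orientations was 0.69. In the dimmer bins the median gap was 0.14 or less in size. All 6 histone probes in that bin split. The 7th, for H3f3a, had a gap of 0.81. Averaging the orientations left fetal means of 0.22 to 0.31 for these H2A probes. Only the Hist2h2ac probe at chr3:96024461-96024520 passed the test (0.31 ± 0.14, limma adjusted p = 0.0310), and on the arrays with FR in Cy3 alone it read -0.23.

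**Figure D3:**
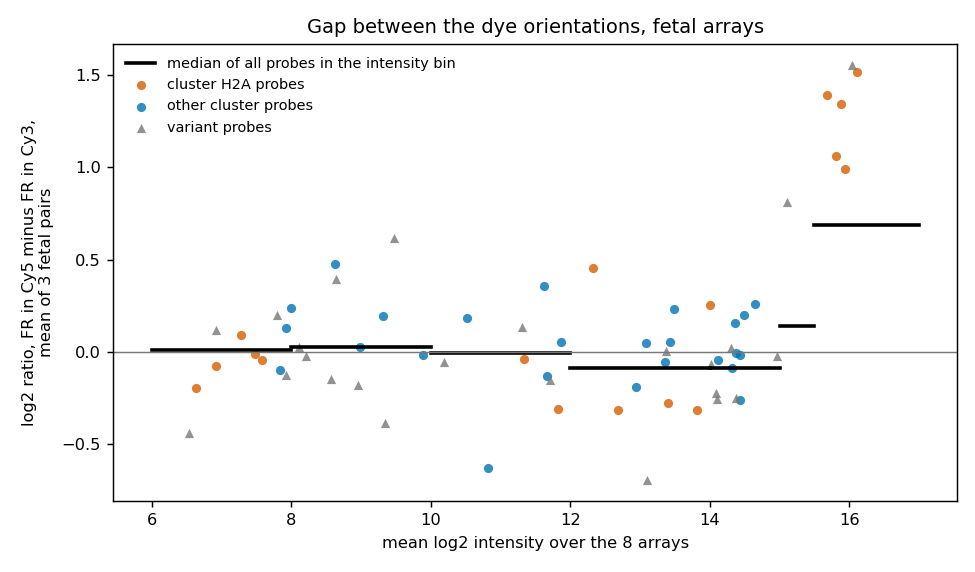
Gap between dye orientations (log2 ratio with FR in Cy5 minus that with FR in Cy3, mean of 3 fetal pool pairs) against the mean log2 intensity of each histone probe over 8 arrays, with black bars at the median gap of all probes in each intensity bin (the outer bins are drawn to 6 and 17). In the brightest bin, the median of all probes is 0.69, and 5 cluster H2A probes and 1 variant probe lie above it.

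Hist1h2ao was also low in the mothers, at -1.07 and -0.62. Both maternal arrays were below all 6 fetal arrays, though the fetal arrays with FR in Cy3 came close. The maternal mean was -0.84, and the maternal minus fetal change was -1.11 (limma adjusted p = 0.0450). With FR in Cy3 alone it was -0.19 (adjusted p = 0.603), and with FR in Cy5 alone -2.03 (adjusted p = 0.0138), so the call was lost in 1 dye orientation. Hist3h2a, of the chromosome 11 cluster, had no fetal change that passed, and its 2 probes read -0.01 and -0.72 in the mothers.

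The cluster H2B genes showed the clearest contrast between mother and fetus. In all 9 measured probes both maternal arrays lay below all 6 fetal arrays, as in 12% of 27584 probes on the whole array. Over the cluster as a whole this held for 24 of 41 probes, and over the variants for 3 of 23. The cluster count was 8 of 41 with the authors' deposited ratios and 3 of 41 without loess. Both maternal arrays below 0 and all fetal arrays above 0 were found in 6 of the 9 H2B probes, 11 of 41 cluster probes and 0 of 23 variant probes, against 2.28% of all probes. The H2B median was 0.43 in the fetuses and -0.52 in the mothers. The medians kept their sign under every setting tried, but the count of 9 fell to 8 with scale normalization, 3 with the authors' deposited ratios and 1 without loess, and with non-uniform spots left out 1 of the 2 probes left.

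Hist1h2bk, whose probe at chr13:22127928-22127987 is printed above, read 0.31, 0.50, 0.67, 0.72, 0.14 and 0.17 on the fetal arrays and -0.41 and -0.55 in the mothers. Its fetal mean was 0.42 ± 0.27 (limma adjusted p = 0.0442). Hist1h2bm, with 52 bases in common, gave 0.43 ± 0.28 (adjusted p = 0.0445) and -0.60 in the mothers, and Hist3h2bb-ps gave 0.36 (adjusted p = 0.0836) and -0.55. These 3 values are nearly the same and come from near-identical probes. Hist1h2bc, whose probe shares no run of 20 bases with another member, had fetal arrays of 0.53, 0.17, 0.77, 0.73, 0.26 and 0.07 and maternal arrays of -0.48 and -0.61. It followed the same pattern with a fetal mean of 0.42 ± 0.30 and missed the threshold (adjusted p = 0.0548). The testis H2B gene Hist1h2ba read 0.42, 0.50, 0.88, 0.76, 0.20 and 0.11 in the fetuses and -0.63 and -0.41 in the mothers, again without overlap. Its fetal mean was 0.48 ± 0.33 (adjusted p = 0.0498), and this was weaker in 7 of 14 settings tried. The Hist1h2ba probe shares at most 14 bases in a row with another member probe, and whether other H2B mRNAs add to its signal was not tested. The maternal minus fetal difference of these H2B probes ranged from -1.03 to -0.90 and did not pass the test (lowest adjusted p 0.0801).

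Of the remaining H2B genes, Hist1h2bp stood highest. Its probe, which carries the poly(A) signal letters, read 1.18, 0.87, 1.94, 1.73, 1.04 and 0.83 in the fetuses and 0.13 and -0.05 in the mothers. The fetal arrays were all high and the maternal arrays near 0. The fetal mean was 1.27 ± 0.50, or 2.40-fold (limma adjusted p = 0.0119). The array lists 0 RefSeq transcripts for this probe, which was dim, with a mean log2 intensity of 8.00. Hist3h2ba rose by 0.69 ± 0.33 (adjusted p = 0.0200) and read -0.11 in the mothers. Its fetal arrays read 0.10, 0.82 and 0.20 with FR in Cy5, and higher with FR in Cy3, at 1.15, 1.28 and 0.58. Hist2h2be went the other way. It read -0.41, -0.42, -0.36, -0.32, -0.42 and -0.39 in the fetuses and -1.04 and -0.77 in the mothers. All 8 arrays were below 0, and the maternal arrays were lower than every fetal one. The fetal mean of -0.39 ± 0.04 had the lowest adjusted p of all members (0.00852), and the maternal mean was -0.91.

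All 3 cluster H3 probes rose in the fetuses. Hist1h3a, whose probe carries the whole stem-loop, read 0.67, 0.36, 1.23, 1.28, 0.68 and 0.56 in the fetuses and -0.11 and -0.14 in the mothers. Fetal and maternal arrays did not overlap, and the fetal mean was 0.80 ± 0.40 (limma adjusted p = 0.0214). The Hist1h3a probe was not well above background in both channels on every array. Its log2 signal in the mothers was only 6.96 in control and 6.83 in FR. Hist1h3d gave 0.30 ± 0.17 (adjusted p = 0.0436) and Hist2h3c1 0.30 ± 0.18 (adjusted p = 0.0437), with -0.02 and -0.15 in the mothers. The array lists 4 and 3 RefSeq transcripts for their probes, so these signals may not be of separate genes.

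None of the 6 cluster H4 probes passed limma's test in the fetuses (adjusted p from 0.251 to 0.552, and 0 at an unadjusted p under 0.05). Hist1h4d read -0.07, -0.02, 0.45, 0.21, 0.09 and -0.18 in the fetuses, on both sides of 0, and -0.24 and -0.37 in the mothers. The H4 median was 0.11 in the fetuses and -0.30 in the mothers, and all 6 probes were below 0 in the mothers. By pool pair the H4 median was 0.03 in the pools of 6 and 0.32 and -0.03 in the pools of 3, so 1 fetal pair stood above the others. Since H4 pairs with H3 in each nucleosome, the H3 and H4 values are given side by side, and their difference was not tested.

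Variant H2A genes did not lean to either side. Of 11 measured probes, limma called 0 higher and 2 lower (2 and 3 at an unadjusted p under 0.05), with a median of -0.05 in both fetuses and mothers. H2afz, the main H2A.Z gene, read 0.15, -0.14, -0.01, 0.18, 0.02 and 0.18 in the fetuses, around 0, and -0.58 and -0.17 in the mothers. Its fetal mean was 0.06 ± 0.05 (limma adjusted p = 0.370) and its maternal mean -0.37. H2afv, the second H2A.Z gene, was the other way around, with -0.13 ± 0.05 in the fetuses (adjusted p = 0.0940) and 0.38 and 0.38 on the maternal arrays. The maternal minus fetal difference was -0.44 for H2afz (adjusted p = 0.0868) and 0.52 for H2afv (adjusted p = 0.0621), and neither passed.

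H2afx encodes H2A.X, which is phosphorylated at DNA breaks. It read -0.24, 0.60, 0.07, 0.65, -0.23 and 0.44 in the fetuses, higher with FR in Cy3, and -1.58 and -0.52 in the mothers. Both maternal arrays were below every fetal array, and they differed from each other by over 1. The fetal mean was 0.21 ± 0.13 (limma adjusted p = 0.0668), the maternal mean -1.05, and the difference of -1.27 passed (adjusted p = 0.0188). It was -1.45 with FR in Cy5 alone and -1.08 with FR in Cy3 alone (adjusted p = 0.0119 and 0.0149). On slide 1 alone, which held the mothers and the fetal pools of 6, the difference was -1.23.

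The macroH2A1 gene H2afy, whose product carries a large non-histone domain, fell on its brightest probe by 0.26 on the log2 scale (SD 0.13, limma adjusted p = 0.0387), while its other probes gave -0.10 and -0.20 and did not pass. H2afy3 read -0.69, -0.23, -0.52, -0.17, -0.51 and -0.17 in the fetuses and -0.09 and 0.07 in the mothers. Every fetal array was below 0, lower with FR in Cy5, and the fetal mean was -0.38 ± 0.07 (adjusted p = 0.00986). The macroH2A2 gene H2afy2, too dim in the mothers, gave -0.05 in the fetuses. The second H2afj probe, which shares no run of 20 bases with another member, gave 0.15 in the fetuses and -0.32 in the mothers, and neither H2afj probe passed.

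Of the H3.3 genes, H3f3b rose and H3f3a did not pass, although both encode the same replacement histone. The brightest H3f3b probe (chr11:115883732-115883791, mm9) read 0.62, 0.92, 0.58, 0.90, 0.30 and 0.44 in the fetuses and 0.12 and 0.52 in the mothers. All 8 arrays were above 0, and mother and fetus overlapped. Its fetal mean was 0.63 ± 0.22 (limma adjusted p = 0.0118), and the other probes gave 0.44 ± 0.15 (adjusted p = 0.0137) and 0.40 ± 0.14 (adjusted p = 0.0162). The 3 H3f3a probes gave fetal means of 0.13 to 0.16 (adjusted p from 0.13 to 0.453) and maternal means of -0.12 to 0.09. The difference between the genes was not tested.

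H2afz was used to find genes with a like pattern over the 8 arrays. Among 25468 probes above background throughout, the highest Pearson correlations with the H2afz log2 ratios were 0.98 for Fkbp7, 0.97 for Ddx25, 0.97 for Zfp946, 0.96 for 4921531C22Rik and 0.96 for Cenpp. None of these is a histone gene. The 8 arrays are 4 pool pairs, each run in both orientations, so the values describe these arrays and carry no test.

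Over all members, limma's test of maternal minus fetal change was read as above. Limma called 1.54% of 27584 probes with the maternal change above the fetal one and 1.58% below. Among histone probes 0 were called above (31 had an unadjusted p under 0.05 over both directions) and 3 below, which were Hist1h1d, H2afx and Hist1h2ao. The share of all probes at that unadjusted threshold is not given for this test, so such histone counts cannot be read as an excess. The median difference was -0.45 over cluster probes and -0.13 over variant probes, against 0.01 over all probes. Leaving out the fetal pools of 6 ended all 3 calls, and the test then called 0 probes of the whole array. Leaving out the second pair of pools of 3 gave 10 histone calls below. The whole array then had 1170 calls over both directions, against 861 with all pairs.

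In the control livers 31 of 66 histone probes passed as higher in fetuses than in mothers and 1 as lower. Levels are log2 signals of the control channel alone, set to a like distribution across arrays, and are compared for the same probe only. The mothers gave 1 control pool (n = 1) on slide 1, so the limma test takes its spread from the 3 fetal pools, 2 of them on slide 2. Over the whole array it called 15.6% of 30531 probes higher in the fetuses and 16.5% lower. With non-uniform spots left out 6 histone probes were called higher. The median of fetal minus maternal level was 1.74 over cluster and 0.68 over variant probes. Over all 3 fetal pools Hist1h2ab had the largest gap, from 7.96 in the mothers to 11.87, 15.06 and 14.96 in the fetal pools (difference 6.00, adjusted p = 0.0224), and Hist1h1b went from 7.59 to 12.08, 13.72 and 13.68 (5.57, adjusted p = 0.00384). On slide 1 alone Hist1h2ab differed by 3.91, less than Hist1h1b with 4.49, Hist3h2ba with 4.31 and the dimmer Hist1h2af probe with 4.27. Hist3h2ba and the dimmer Hist1h2af probe differed by 4.47 and 4.32 (adjusted p = 0.000159 and 0.000103). The fetal values of these genes were far above the maternal one in every pool.

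The H2B genes Hist1h2bk, Hist1h2bm and Hist1h2bc did not share in this, with differences of 0.06, 0.03 and -0.02. They had like levels in control mothers and fetuses. The H2afz level was 13.61 in the mothers and 15.33, 15.40 and 15.35 in the fetuses (1.76, limma adjusted p = 0.00117), and H2afx went from 11.52 to 14.03, 13.75 and 13.69 (2.31, adjusted p = 0.00118). H1f0 and Hist1h1c, the genes with the largest fetal changes in their classes, differed by 0.33 and 0.27 and did not pass. The 1 probe called lower in fetuses was the dimmest H2afy probe (-0.71, adjusted p = 0.0396), and Hist2h2aa1, on its brightest probe, gave -0.93 (adjusted p = 0.287).

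Levels of H4, some linker and a few H2A genes differed between the slides. The fetal controls on slide 2 (pools of 3) were above those on slide 1 (pools of 6) by 1.79 to 3.23 for the 6 H4 probes, by 3.46 for Hist1h1e and by 3.13 for Hist1h2ab. A gap of over 1 was found in 13 of 42 cluster probes and 1 of 24 variant probes, and in 1.71% of all probes. On slide 1 alone the median of fetal minus maternal level was 1.09 for cluster and 0.57 for variant probes. Pool size and slide cannot be told apart here. The FR over control ratios are formed within an array.

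**Figure D4:**
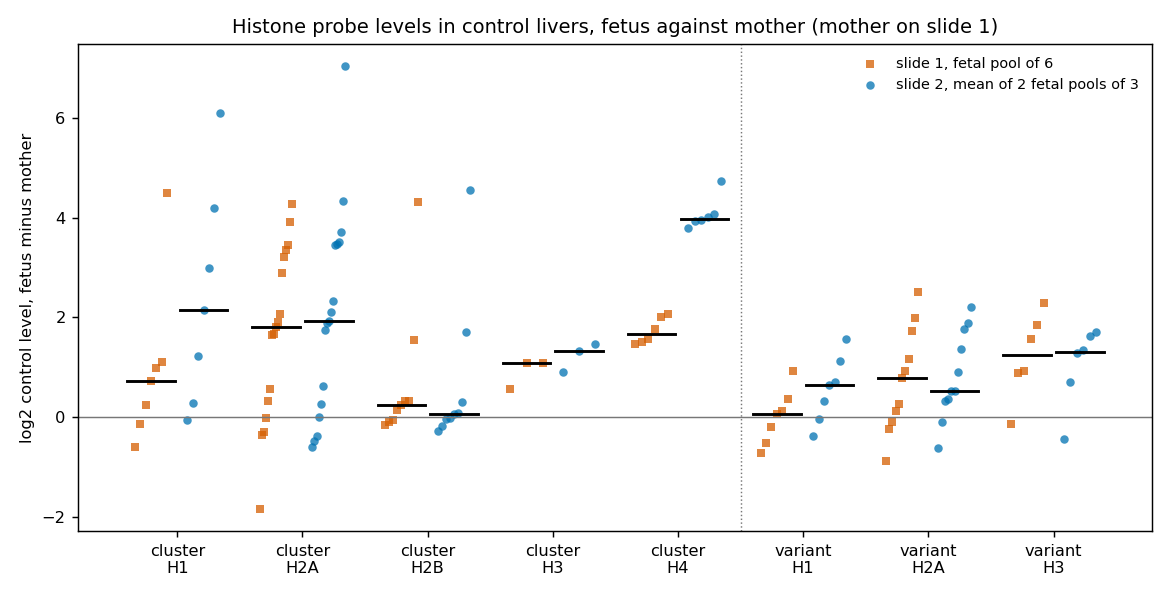
Log2 level in control livers, fetus minus mother, for each histone probe by class and family, with the fetal pool of 6 on slide 1 (squares) and the mean of the 2 fetal pools of 3 on slide 2 (circles), and bars at the medians. The mother is on slide 1, and the H4 probes on slide 2 all lie above those on slide 1, while most H2B probes lie near 0.

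Fetal medians of the 4 loci with several probes were 0.27 to 0.29, and single probes ranged more widely. For the fetal counts by locus, the shares over all probes were 10.9% higher and 14.3% lower. Of the genes at chr13:21814139-22127987 (7 probes, 6 genes, mm9), 4 probes rose and 0 fell, with a fetal median of 0.27 and a maternal median of -0.48. The block at chr13:23625800-24026718 (21 probes, 18 genes) had 7 rises and 2 falls among 20 measured, with medians of 0.29 and -0.17 and single fetal values from -0.29 to 1.32. The chromosome 3 cluster at chr3:96024461-96067012 (8 probes, 5 genes) had 4 rises and 1 fall and medians of 0.27 and -0.11, and the chromosome 11 cluster (4 probes) medians of 0.27 and -0.33. The lone cluster probes of Hist1h2al, farther along chromosome 13, and Hist4h4, on chromosome 6, gave 0.09 and 0.15 in the fetuses. Neither passed. The Hist4h4 probe at chr6:136752717-136752776 lies near that of H2afj at chr6:136757181-136757240, counted as a variant by its name. No test compared the loci, and they are not fully separate readings. The Hist1h2ak probe shares 40 bases with 1 of Hist1h2af in the other chromosome 13 block. The Hist3h2bb-ps probe on chromosome 11 shares 26 with those of Hist1h2bk and Hist1h2bm. Cluster probes for which the array lists 2 or more RefSeq transcripts had a fetal median of 0.29 and those with fewer 0.26. In the mothers the medians were -0.32 and -0.13.

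Genes that act on histones had group medians near 0 in the fetuses. The counts below stand against 10.9% of all probes higher and 14.3% lower in the fetuses. Of 35 measured genes for histone gene transcription and mRNA processing, 7 rose and 6 fell in the fetuses (median 0.08). Cstf2, a subunit of the cleavage factors shared with polyadenylation, rose by 0.65 ± 0.04 (limma adjusted p = 0.00477), and Zcchc6, which adds uridines to RNA ends, by 0.54 ± 0.15 (adjusted p = 0.00947). Lsm10, of the U7 particle that cleaves histone mRNAs, fell by 0.47 (SD 0.22, adjusted p = 0.0213), and Slbp, the stem-loop binding protein gene, gave -0.14 ± 0.07 (adjusted p = 0.111). Of 44 chaperone genes 6 rose and 4 fell (median 0.03), among them Anp32e, which removes H2A.Z, with 0.48 ± 0.17 (adjusted p = 0.0144), and Chaf1b, of the replication-coupled assembly factor, with 0.43 ± 0.12 (adjusted p = 0.0118). Of 44 S phase genes 6 rose and 5 fell in the fetuses (median 0.06). In the mothers the S phase median was -0.24, with 2 of 42 past 1.5-fold upward and 7 downward, against 2.93% and 3.44% of all probes.

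Markers of other liver cells also moved. Over all probes 10.9% rose and 14.3% fell in the fetuses, and 2.93% and 3.44% passed 1.5-fold upward and downward in the mothers. In the fetuses 10 of 12 B lineage markers fell (median -0.87), their summed log2 level being 14.9 to 15.1 in the control pools and 13.5 to 14.2 in the FR pools. Of 11 granulocyte markers measured 8 fell (median -0.59), with summed levels of 18.88 to 18.91 and 18.1 to 18.3. Of 12 erythroid markers 0 rose and 1 fell, with summed levels of 18.6 to 19.1 and 18.98 to 19.35. Of 10 hepatocyte markers 5 fell, with summed levels of 19.7 to 19.97 in control and 19.4 to 19.7 in FR pools. Of 9 Kupffer cell and macrophage markers 3 fell in the fetuses (Clec4f -1.05, Emr1 -0.46 and Cd68 -0.22) and 1 rose (Marco 0.69), with summed levels of 15.47 to 15.7 in control and 15.6 to 15.7 in FR pools. In the mothers Clec4f and Emr1 passed 1.5-fold downward (-1.28 and -1.15). Of 4 fetal hepatoblast markers 1 fell. In the control mothers 4 of the B lineage, 3 of the granulocyte and 4 of the erythroid markers were not well above background, and the summed erythroid level was 16.3 in control and 15.4 in FR. In bulk liver, fewer cells of a type and less RNA per cell cannot be told apart, and the part of these shifts in the histone values was not tested.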

How the data were processed

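Scanner files of 8 arrays on 2 slides were used. Per the file headers they hold Cy3 and Cy5 intensity from Agilent Feature Extraction, version 9.5.3.1 on slide 1 and 11.0.1.1 on slide 2, and the submitters' processing notes name 9.5.3.1. The authors' deposited value table matched log10 of the processed Cy5 over Cy3 ratio within 5e-08 and served as an alternative. How the authors made them is not given in the sources used here. The deposited descriptions carry text from another study and number the dye-exchanged arrays as a second pool. The pool or group in the titles and sources is the same for each pair of arrays, and these labels were followed. If they were different pools, each mean of 2 arrays would span them.

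With R 4.3.3 and limma 3.58.1, background was corrected by normexp (offset 50) followed by loess within arrays (weight 0 for control spots). Population outliers were left out, and non-uniform and saturated spots kept. Values computed here are log2 ratios, unlike the deposited log10 ones, turned to FR over control. Slide 2 files lack the mean spot signal, so medians were taken there and means on slide 1. The 2 arrays of a pair were averaged to 1 replicate. A probe was kept if well above background in 1 diet on every array of a result, and so many dim probes passed through 1 group. Tests used lmFit and eBayes with Benjamini-Hochberg adjustment over all probes kept. Levels used Aquantile normalization.

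The members, lists and named genes were chosen with earlier results of these data known. Named were called members up to the 10 largest each way, the 6 highest and lowest, those with a maternal and fetal difference, the 4 largest level differences, and the main variant and linker genes, by the brightest probe, with other probes where they differed. Median signals per array were 69.1 to 284 in Cy3 and 122 to 310 in Cy5, over a background of 46 to 68. Only 1 maternal and 3 fetal pool pairs limit the precision. Sequences are the array's probes (positions mm9, slide 1 annotation) and RefSeq promoters (GRCm38.p6). No protein sequences were used here.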

Additional observations from a re-analysis of the deposited data

Results flagged for a closer look

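The 3 probes below were singled out because their change with FR differed between mothers and fetuses by limma's test of the difference itself, with 1 maternal and 3 fetal pool pairs. Hist1h1d, on its dimmer probe, had a maternal minus fetal change of -2.30 (SE 0.29, adjusted p = 0.0288), and on slide 1 alone of -2.18. Across the settings tried it ranged from -5.26, with the authors' deposited ratios, to -1.90, with FR in Cy3 alone, and it was lost with scale normalization and without the fetal pools of 6 (adjusted p = 0.0736 and 0.124). H2afx had a difference of -1.27 (adjusted p = 0.0188), with -1.45 to -1.08 across settings, and it was lost in 3 of 14 of them (adjusted p up to 0.120). Hist1h2ao had a difference of -1.11 (adjusted p = 0.0450), and on slide 1 alone of -1.30, and it was lost in 7 of 14 settings, where adjusted p reached 0.603 with FR in Cy3 alone. The dye gap of Hist1h2ao was 1.39 in the fetuses and -0.45 in the mothers, and that of H2afx -0.70 and -1.06. With FR in Cy5 alone and with FR in Cy3 alone the difference was -2.03 and -0.19 for Hist1h2ao, -1.45 and -1.08 for H2afx, and -2.70 and -1.90 for Hist1h1d. Of these, the call of Hist1h2ao with FR in Cy3 was the one lost. The mothers' single pool pair gives these tests no maternal spread. With all channels required above background, the dimmer Hist1h1d probe was left out, so its difference was not tested there.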

How the results depend on the processing

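The cluster medians kept their direction under every setting tried. With non-uniform spots left out, which leaves 17 cluster and 14 variant probes in the fetal test and no H4 probe, 5024 probes of the array were called, 11 histone probes rose and 2 fell, 1 histone probe passed upward in the mothers and 1 was called with the maternal below the fetal change. The maternal cluster median was then -0.17, 6 probes had higher control levels in fetuses, and the level medians were 0.62 (cluster) and 0.23 (variant). With an offset of 10 the maternal cluster median was -0.29. Without loess 4602 probes were called, 10 histone probes rose and 3 fell, the fetal variant median was 0.034, the maternal medians were -0.17 (cluster) and -0.00481 (variant, which turned), 1 passed upward in the mothers and 1 had the maternal below the fetal change. With scale normalization limma called 0 probes in the fetuses, so 0 histone rises and 0 falls (10918 probes at an unadjusted p under 0.05), with 5 maternal histone probes past 1.5-fold downward and 0 maternal below fetal (26 histone probes at an unadjusted p under 0.05). The authors' deposited ratios gave 13 rises and 3 falls, a maternal cluster median of -0.30, 4 and 7 maternal histone probes past the fold, and 8 and 1 with the maternal below and above the fetal change. With all channels above background the variant level median was 0.82. With 1 probe per gene 13 rose and 1 passed upward in the mothers. On arrays with FR in Cy5 alone the maternal medians were -0.24 and 0.085, 6 passed downward in the mothers, 0 had lower control levels in fetuses, and Hist1h2ab turned to 0.027. On those with FR in Cy3 alone 8 fell in the fetuses, 7 passed downward in the mothers, and Hist2h2ac turned to -0.23. At 2-fold the maternal counts were 0 and 1. On slide 1 alone the level medians were 1.09 and 0.57.

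Leaving out each fetal pool pair in turn gave 1099 to 6897 called probes, 0 to 30 histone rises, 0 to 3 falls, 0 to 10 probes with the maternal below the fetal change, 0 to 4 with lower control levels in fetuses, and a variant level median of 0.58 to 0.70. The low counts of 0 rises and 0 falls came without the pools of 6, where limma called 0 histone probes. The test of the difference called 0 probes of the whole array there, and 1170 without the second pair of pools of 3. The cause of these shifts was not tested. FR and control are already paired, since each ratio is formed within an array. No paired analysis was possible because mothers and fetuses share fewer than 2 pool numbers. Slide as a random block could not be fitted with 3 fetal pairs. The number of pools and signal over background limit what could be detected.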
